A study of Mus musculus with 12 samples.

Results

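The mitochondrial ribosomal protein genes (MRP genes) were examined in bulk RNA-seq of murine LSK cells with and without BCR::ABL1 expression. Members were the rows of the 12 count files whose Ensembl identifier maps to a protein-coding mouse symbol beginning with Mrpl or Mrps and a digit. Of 56748 identifiers, 83 symbols had this form, 5 of them were processed pseudogenes, and the other 78 were the members: 49 Mrpl genes, named for the large subunit, and 29 Mrps genes, named for the small subunit. No measured value entered this rule, although earlier results of these data were known when it was chosen.

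Donor BM came from SCLtTA/BCR-ABL double transgenic (DTG) mice (CD45.2), in which the SCL regulatory element drives the tetracycline transactivator and tetracycline (TET) holds BCR::ABL1 off, and it was transplanted into irradiated B6.SJL (CD45.1) recipients aged 8 to 12 weeks. All recipients received TET during engraftment. In the 6 CTRL libraries TET was kept on (labelled normal), and in the 6 CML libraries it was withdrawn for 2 weeks (labelled CML). RNA came from flow-sorted donor CD45.2+ Lin-Sca+Kit+ (LSK) cells. The methods describe the donor cells as a frozen pool from several DTG mice of both sexes. By that description the libraries differ by recipient and not by independently derived donors. In the labels every CTRL library is Male and every CML library Female, so labelled sex and BCR::ABL1 cannot be told apart. The female-expressed transcript Xist was nevertheless at 3794 to 4425 CPM in the CTRL libraries against 2183 to 3502 CPM in the CML libraries. These values do not match the label Male if that label is of the sorted donor cells. The Y-linked Ddx3y was at 0 to 0.588 CPM in the CTRL libraries, and in CML it was at 8.64 CPM in CML 2, 1.14 CPM in CML 4 and 0 in the other 4 libraries labelled Female. Such uneven Ddx3y does not match a shared pool of both sexes, so whether all libraries share donors is uncertain. CML 2 also had the highest summed level of stromal genes (1077 CPM), and which cells its Ddx3y came from was not tested.

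Mitochondria carry their own ribosome, which translates only the few proteins encoded by mitochondrial DNA, all of them core subunits of the respiratory chain and ATP synthase. Its rRNAs are transcribed inside the organelle, whereas all of its proteins are encoded in the nucleus, made in the cytosol and imported. Many of these proteins descend from bacterial ribosomal proteins and others exist only in mitochondria. In haematopoietic stem and progenitor cells, mitochondrial translation and oxidative phosphorylation are low at rest and are engaged as cells differentiate, and chronic myeloid leukaemia stem cells are known for their dependence on oxidative metabolism.

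The depth was 22804754 to 41832868 counts per CTRL library and 16150817 to 25070105 per CML library. Of the 10 LSK markers listed, all were counted in both groups (Kit 749 CPM in CTRL and 412 in CML, Cd34 750 and 553), and 9 were lower in CML, the summed level being 2633 to 3046 CPM in CTRL and 1381 to 1822 in CML. Mast cell and basophil genes (5 of 8 higher, 1 lower) summed to 294 to 396 CPM in CTRL and 461 to 2422 in CML, granulocyte genes (5 of 10 higher, 4 lower) to 2327 to 4672 and 3121 to 8562, monocyte and macrophage genes (4 of 10 higher, 0 lower) to 299 to 556 and 506 to 903, and stromal genes (4 of 9 tested higher, 0 lower) to 193 to 252 and 176 to 1077. Megakaryocyte genes (5 of 5 tested lower) summed to 276 to 322 CPM in CTRL and 90.6 to 252 in CML. Of the erythroid genes 1 of 10 was higher and 8 were lower, but their sums overlapped, at 569 to 734 CPM in CTRL and 404 to 781 in CML. B cell genes (2 of 8 lower) and T and NK cell genes (2 of 6 tested higher, 1 lower) moved in few members. No marker was at 0 in all libraries. The part of these shifts in cell makeup in the results that follow was not tested.

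MRP mRNA was more abundant in CML. The 78 members summed to 2138 CPM in the lowest CTRL library, 2348 at the median and 2536 in the highest, where CPM stands for read counts scaled to the TMM-adjusted size of the library. In the CML libraries the lowest was 3531, the median 3979 and the highest 4974 CPM. The groups did not overlap, and the means, 2351 ± 140 and 4088 ± 568 CPM (SD, n = 6 each), differed 1.74-fold. As a share of all counts, the members took 0.221 to 0.245% in CTRL and 0.349 to 0.461% in CML. In bulk RNA more MRP mRNA per cell and a larger share of cells rich in it cannot be told apart.

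**Figure D1:**
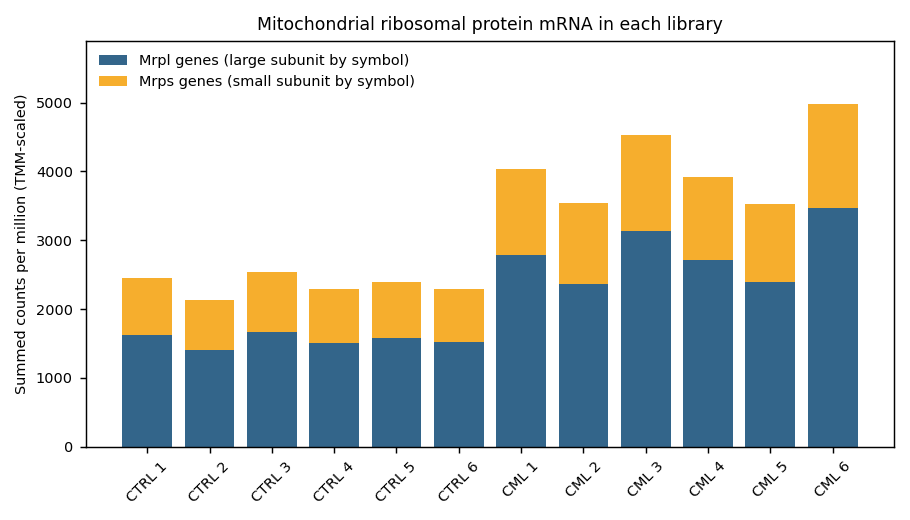
Summed CPM of the Mrpl genes (blue) and the Mrps genes (yellow) in each of the 12 libraries, with the axis starting at 0. Every CML bar, from 3531 to 4974 CPM, stands above the highest CTRL bar at 2536 CPM.

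Within CML, CML 2 had the highest mast cell, stromal, LSK and megakaryocyte sums (2422, 1077, 1822 and 252 CPM). Its MRP sum of 3540 CPM was close to the lowest in its group, 3531 CPM in CML 5. That library was the highest for none of the marker lists. CML 6 had the highest granulocyte and monocyte sums (8562 and 903 CPM) and the highest MRP sum. It was also the highest for T and NK cell genes (191 CPM) and for G2 and M phase genes (2427 CPM). Without CML 6 the median log2 fold change of the members was 0.75, and without CML 2 and 4, a pair left out for their stromal genes in earlier work on these data, it was 0.88.

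Gene by gene, 77 of the 78 members passed the filter on low counts and were tested. At an adjusted p under 0.05, 68 were higher in CML and 0 were lower, where 30.6% of all 18438 genes tested were higher and 29.0% were lower. With edgeR's quasi-likelihood test 0 members were lower also at an unadjusted p under 0.05, and DESeq2 and limma voom called 0 lower as well. The median log2 fold change was 0.82 (1.77-fold), against 0.07 over all genes tested and -0.11 over the 13066 protein-coding genes. For 61 members the lowest CML library lay above the highest CTRL library, where 17.0% of all genes tested were separated in this direction. P-values measure the spread between libraries. The methods describe these as recipients of a shared donor pool, which the Ddx3y values leave uncertain.

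**Figure D2:**
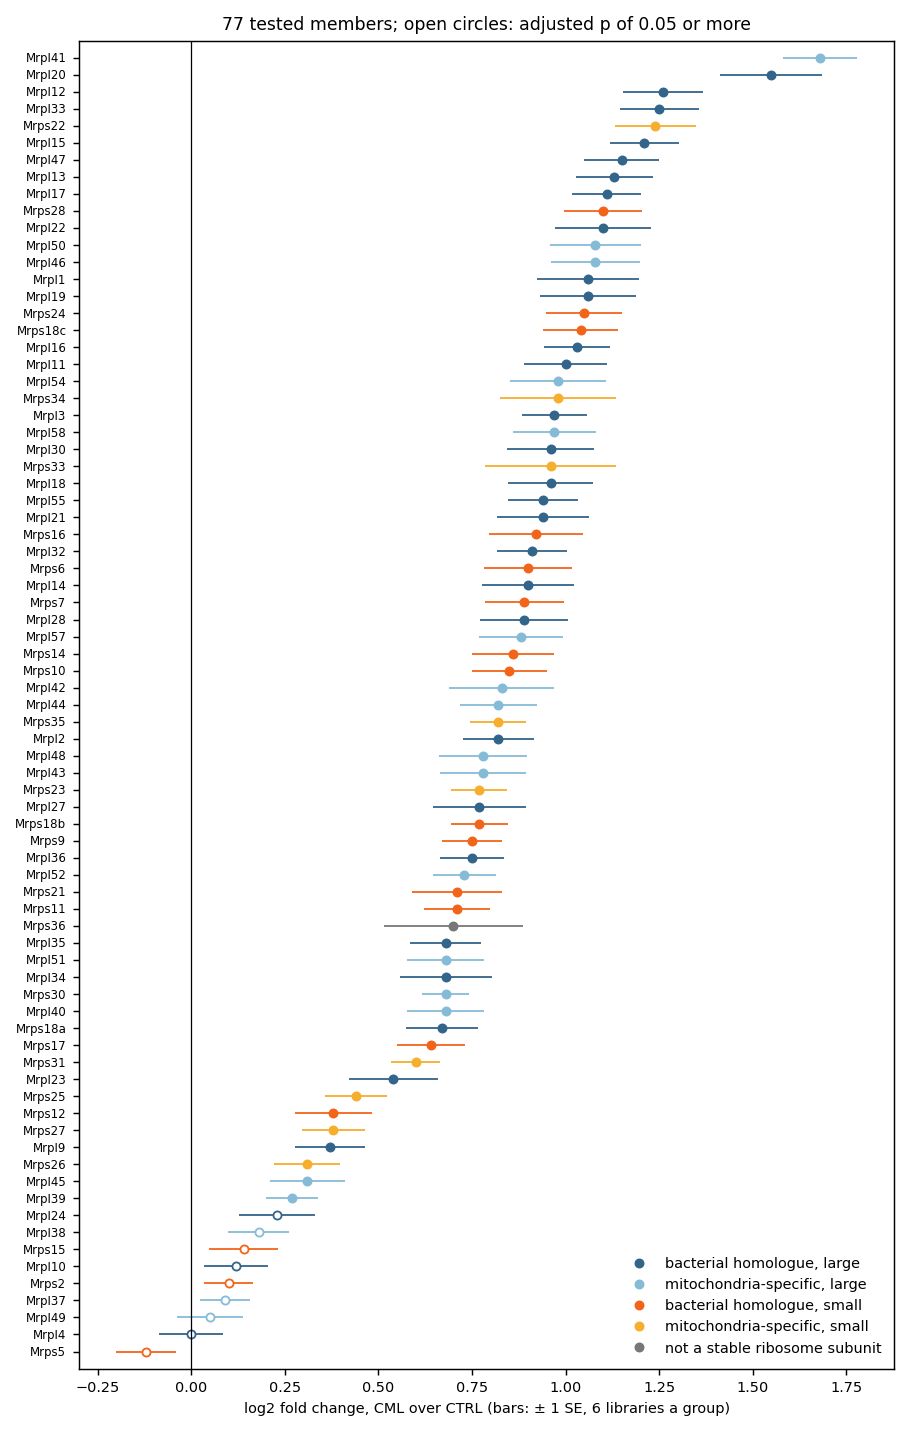
Log2 fold change of CML over CTRL for the 77 tested members, with bars of 1 SE and 6 libraries a group, coloured by origin and subunit. The estimates run from -0.12 for Mrps5 to 1.68 for Mrpl41, and the 9 open circles at the bottom mark members that did not pass the test.

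The change covered proteins of either origin and of both subunits. Among proteins with a bacterial homologue, 28 of 31 in the large subunit and 14 of 17 in the small subunit rose, with median log2 fold changes of 0.94 and 0.77. Of the mitochondria-specific proteins, 16 of 19 tested in the large subunit and 9 of 9 in the small subunit rose, with medians of 0.78 and 0.77. These medians describe the classes and were not compared by a test.

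Among the large subunit genes, Mrpl41 had the highest fold change of all members. It encodes a protein found only in mitochondrial ribosomes, and its level was 13.04, 15.5 and 17.2 CPM in the lowest, median and highest CTRL library and 42.3, 47.8 and 58.0 CPM in CML. The groups were far apart, and the log2 fold change was 1.68 ± 0.10 (SE; adjusted p = 2.12e-08).

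Mrpl20, whose bacterial homologue binds large subunit rRNA early in assembly, was next. Its level was 28.2, 31.3 and 35.2 CPM in the lowest, median and highest CTRL library and 68.6, 83.2 and 122 CPM in CML, a log2 fold change of 1.55 ± 0.14 (SE; adjusted p = 3.53e-07). CML 3 and CML 6 held the highest values and CML 2 the lowest. Mrpl12, the homologue of the bacterial stalk protein that recruits translation factors, was at 45.6, 58.8 and 66.5 CPM in CTRL and 114, 136 and 165 CPM in CML. The groups again did not overlap (log2 fold change 1.26 ± 0.11, SE; adjusted p = 2.77e-07).

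Mrpl33, which encodes one of the smallest proteins of the large subunit, measured 42.1, 47.4 and 49.2 CPM in the lowest, median and highest CTRL library and 90.0, 101 and 142 CPM in CML (log2 fold change 1.25 ± 0.11, SE; adjusted p = 2.50e-07). Mrpl15, the homologue of a bacterial protein of the core of the subunit, rose from 45.2 to 53.7 CPM over the CTRL libraries to 89.9 to 142 CPM over the CML libraries. Its log2 fold change was 1.21 ± 0.09 (SE; adjusted p = 1.08e-07). Mrpl22, whose bacterial homologue lines the exit tunnel for the nascent chain, and Mrpl47, the homologue of a bacterial protein at the tunnel exit, changed by 1.10 and 1.15 on the log2 scale. Mrpl22 was at 12.3 to 16.0 CPM in CTRL and 22.3 to 36.9 in CML, and Mrpl47 at 18.1 to 22.1 and 37.2 to 57.4. Mrpl13 (1.13), Mrpl17 (1.11) and Mrpl50 (1.08) complete the large subunit genes among the 12 highest fold changes, and none of the 3 had overlapping groups.

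In the small subunit, Mrps22 and Mrps28 stood among the 12 highest fold changes. Mrps22, a mitochondria-specific protein whose loss causes mitochondrial disease in people, was at 21.9, 25.9 and 27.8 CPM in the lowest, median and highest CTRL library and 50.4, 54.9 and 77.9 CPM in CML (log2 fold change 1.24 ± 0.11, SE; adjusted p = 3.47e-07). Mrps28, assigned to the place of bacterial protein S1, was at 15.8 to 21.7 CPM in CTRL and 32.3 to 46.7 CPM in CML, a log2 fold change of 1.10 ± 0.11 (SE). Both genes were apart between the groups in every library.

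The map of members by library shows that the CML libraries moved together. Each CML library had 65 to 75 of the 77 tested members above the highest CTRL library. The share of all genes was not computed for single libraries. In all 6 CML libraries at once, 61 members lay above it, where 17.0% of all genes tested did. The median member lay 0.593 to 1.105 log2 units above its CTRL mean, lowest in CML 2 and highest in CML 6. Within a group the members also varied together: the mean Pearson correlation coefficient (PCC) over 2926 pairs was 0.574 in the 6 CTRL libraries and 0.589 in the 6 CML libraries, with 92.4% and 93.6% of pairs above 0. The points of each PCC share their libraries and scaling, so these values are a description. PCCs between other genes were not computed, so whether the members vary together more than others do is not known. The median SD of a member over 6 libraries was 0.11 log2 CPM in CTRL and 0.23 in CML.

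**Figure D3:**
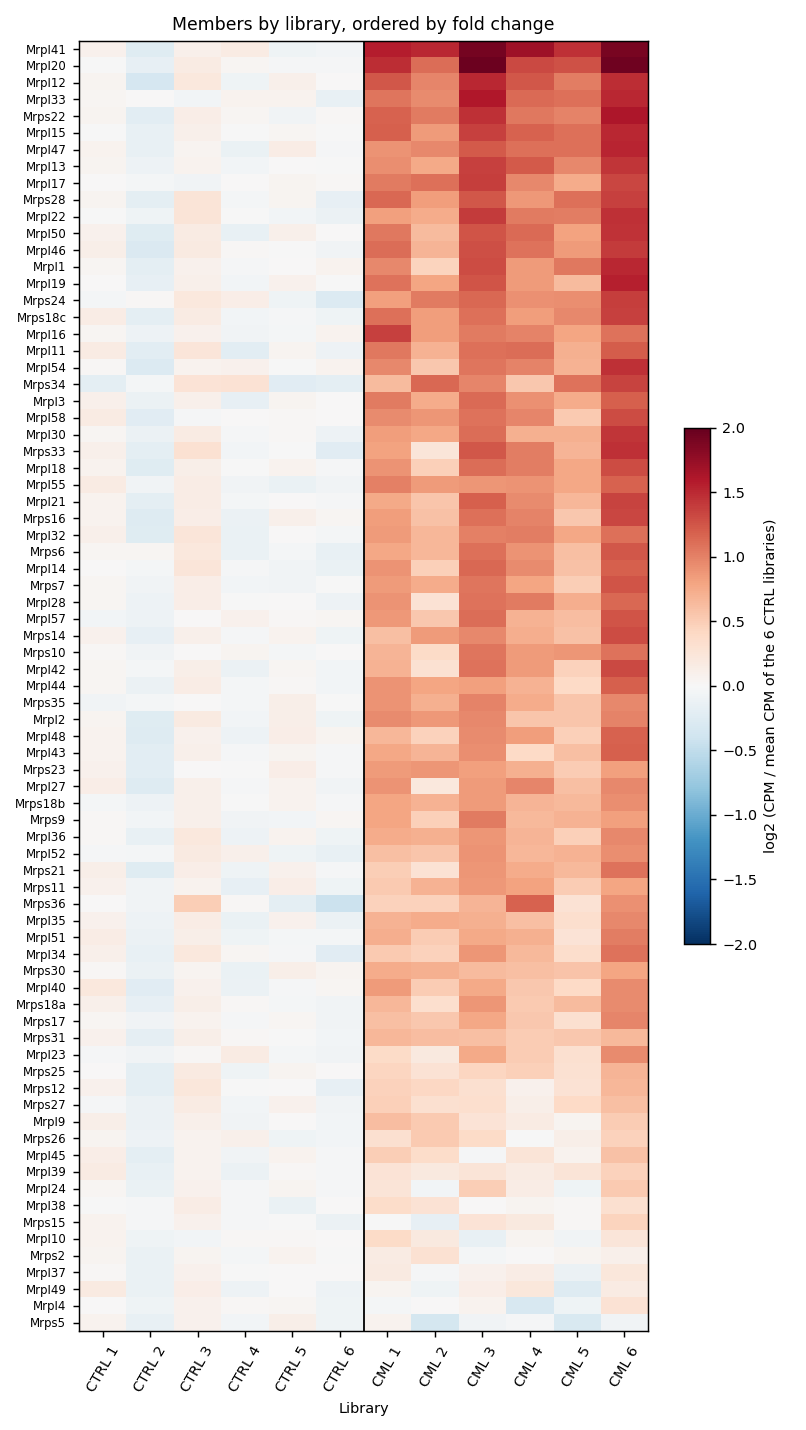
Log2 of each tested member's CPM over its mean in the 6 CTRL libraries, one row per gene ordered by fold change and one column per library, with red above and blue below the CTRL mean. The CML columns are red for most rows, palest in CML 2 and darkest in CML 3 and CML 6, and the bottom rows, Mrpl24 to Mrps5, stay near white.

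Some members varied more than the rest within a group. Mrps33, a small mitochondria-specific protein of the small subunit, had the largest SD in CML, 0.43 log2 CPM, with 11.8 CPM in CML 2 and 27.3 in CML 6. Its CTRL libraries ran from 8.49 to 12.3 CPM, so the groups overlapped at CML 2, and the log2 fold change was 0.96 ± 0.18 (SE; adjusted p = 0.000275). Mrpl42 (SD 0.38) and Mrpl1 (SD 0.37), the latter a homologue of the mobile stalk protein L1, followed in CML, and neither overlapped CTRL. In CTRL the largest SDs were those of Mrps36 (0.30), Mrps34 (0.24) and Mrps33 (0.20), each with a mean under 10 CPM in CTRL.

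Mrps36 calls for a separate mention, because its product is now assigned to the 2-oxoglutarate dehydrogenase complex of the citric acid cycle and not to the ribosome. It measured 3.43 to 6.47 CPM in CTRL and 5.63 to 10.5 CPM in CML, with CML 4 the highest, and the log2 fold change was 0.70 ± 0.19 (SE; adjusted p = 0.00479). The groups overlapped.

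The other 9 tested members did not pass the test. Mrpl4, a bacterial homologue in the large subunit, was at 32.2, 34.6 and 36.4 CPM in the lowest, median and highest CTRL library and 27.5, 34.0 and 41.8 CPM in CML, a log2 fold change of 0.00 ± 0.09 (SE; adjusted p = 0.995). Mrpl49 (0.05 ± 0.09) and Mrpl37 (0.09 ± 0.07), both mitochondria-specific, had the next smallest differences. Of the CML libraries, 3 lay above the highest CTRL library for Mrpl37, and for Mrpl49 CML 4 lay above and CML 5 below the CTRL range. Mrps5, the homologue of a bacterial protein at the entry of the mRNA channel, was named after its values were seen: it had 47.4 to 56.9 CPM in CTRL and 41.0 to 55.3 in CML, a log2 fold change of -0.12 ± 0.08 (SE; adjusted p = 0.218). The other 5 were Mrps2, Mrpl10, Mrps15, Mrpl38 and Mrpl24, with log2 fold changes of 0.10 to 0.23. Of these 9, Mrpl24, Mrpl38, Mrpl10, Mrps2 and Mrpl37 passed the test with upper-quartile scaling, which raised the median of all genes to 0.14.

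Over all 12 libraries, the PCC of a member with the mean of the other 76 was above 0.9 for 61 members and lowest for Mrps5 (-0.20) and Mrpl4 (0.19). Within CTRL alone both followed the other members closely (0.88 for each gene), and within CML at 0.60 and 0.65. The lowest PCC within CML was that of Mrps2 (-0.37) and within CTRL that of Mrpl17 (-0.21). Over 12 libraries the PCC mostly follows the step between the groups, and so the fold change of the member. All these PCCs rest on 12 or 6 libraries that share a scaling and are given as a description.

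Per length of the principal transcript, the levels of members spanned a wide range, and they were ordered by the mean of the CTRL and CML levels. Mrpl33 was the highest in this order, at 97.6 CPM per kilobase in CTRL and 232 in CML, followed by Mrpl42 (64.5 and 115) and Mrpl20 (41.2 and 121). In CML alone Mrpl20 was above Mrpl42, and in CTRL alone it was below Mrps17 (59.8) among others. The lowest by this mean were Mrps25 (4.12 and 5.60), Mrpl17 (4.76 and 10.3) and Mrps36 (6.58 and 10.7), although Mrpl47 was below Mrps36 in CTRL (5.94) and Mrps26 below it in CML (10.4). The principal transcripts annotated for Mrpl17 and Mrps25 are the longest of all members (7300 and 6073 bases) and may not be the ones made in these cells, so their place in this order is uncertain. The first place of Mrpl33 is uncertain too. Its principal transcript has 478 bases, whereas 261 bases make up only 3.6% of all its annotated exon bases. Mrpl33 and Mrpl17, near the ends of this order, had log2 fold changes of 1.25 and 1.11.

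The sums of the subunits differed by different amounts. By symbol, Mrpl genes summed to 1549 ± 96.3 CPM in CTRL and 2809 ± 428 in CML (SD, n = 6 each), 1.81-fold, and Mrps genes to 802 ± 44.1 and 1278 ± 142, 1.59-fold. The ratio of the sums was 1.90 to 1.96 in the CTRL libraries and 2.02 to 2.30 in the CML libraries, without overlap. With Mrps18a and Mrps30 counted in the large subunit, where their proteins sit, and Mrps36 left out, the ratio was 2.15 to 2.23 in CTRL and 2.29 to 2.58 in CML. The median log2 fold change was 0.89 for 48 Mrpl genes and 0.75 for 29 Mrps genes, of which 42 and 26 rose. A ratio of sums follows the most abundant transcripts and was not tested.

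Transcript length moved with the comparison across the whole transcriptome. Over 13050 protein-coding genes, the median log2 fold change fell from 0.44 in the decile with the shortest principal transcripts (up to 1165 bases) to -0.39 in the decile with the longest. MRP transcripts are short, with a median of 1280 bases against 2872 for all these genes. In the shortest decile, 33 of 34 members rose, where 53.2% of all genes there did, and the members' median was 0.89. In the next decile (1166 to 1623 bases) 11 of 15 members rose, where 41.5% of all genes did, with medians of 0.75 and 0.20. Of 28 members with longer transcripts, 24 rose, among them Mrpl15 (4203 bases) and Mrpl47 (3364 bases). Of all genes, 33.6% rose in the decile of 1624 to 2033 bases and 11.7% in the longest decile. The members were weakest at 1624 to 2033 bases (2 of 4 rose, median 0.25) and 2034 to 2458 bases (3 of 4, median 0.29). In all, 72 of 77 members lay above the median of their own length decile. The part of transcript length in the result was not tested further.

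**Figure D4:**
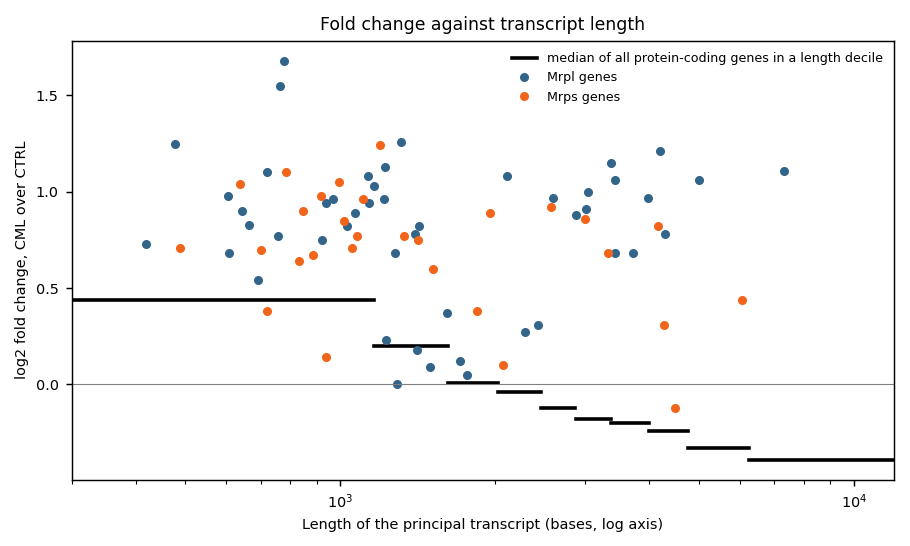
Log2 fold change of CML over CTRL against the length of the principal transcript in bases (log axis) for Mrpl genes (blue) and Mrps genes (orange). The black lines are the medians of all protein-coding genes in each length decile, clipped to the axis, which step down from 0.44 to -0.39, and 72 of the 77 points lie above the line of their decile.

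The counts of some members depend on how overlapping genes were treated. Of the 78 members, 16 share 10% or more of their exon bases with another counted gene. Of the 62 others, 55 rose and 0 fell, with a median log2 fold change of 0.82. Mrpl53 shares 88.0% of its exon bases with Gm42688 on the same strand, and it was the member below the filter, with 0 to 14 counts per library where Gm42688 had 30 to 136. Mrps34, whose product stabilises the small subunit rRNA, shares 63.4% of its exon bases with Mapk8ip3 on the other strand and 37.0% with Nme3 on the same strand. It was at 6.24 to 8.92 CPM in CTRL and 10.6 to 18.7 in CML (log2 fold change 0.98 ± 0.16, SE). Mrps25 shares 69.8% with Nr2c2 on the other strand, and changed by 0.44 ± 0.08 (SE). Neither the strand setting of the counting nor its handling of genes that overlap on the same strand is given in the sources used here.

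Promoter sequences were examined because the members moved together. RefSeq promoters on build GRCm38.p6, from 250 bases before to 50 after the transcript start, were matched by symbol for 69 of the 78 members, in 75 promoters. The ETS family motif CCGGAAG, bound by the GABP complex known for its role at nuclear genes of mitochondria, was present on either strand in 26 member promoters (34.7%) and in 8.86% of all 32851 promoters. The YY1-type motif AAGATGGC was in 16.0% of member promoters and 2.75% of all, and the NRF1-type motif GCATGCGC in 10.7% and 2.71%. The E-box CACGTG, bound by Myc, was in 9.33% against 7.15%, and CCAAT in 40.0% against 37.4%. In no member promoter did the ETS and YY1-type motifs share letters. Between the 67 promoters of members that rose and the 7 of members that did not pass the test, the motifs had no common direction. The ETS motif was in 25 and 0 of them, the CCAAT motif in 27 and 2, the YY1-type in 10 and 2, the NRF1-type in 7 and 1 and the E-box in 6 and 1. These are matches of letters, described without a test, and 7 promoters are too few to compare. The 32851 promoters were not matched to those of the members for expression or base composition.

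The 120 bases before the start are shown for 6 members with high fold changes and for Mrpl37, which did not pass the test, to show where the motifs sit. Each window shown holds a match, but those of many other members hold none. Among these are Mrpl12 and Mrpl47, which rose, and Mrpl49 and Mrps5, which did not pass the test. Sequences are 5′ to 3′ on the strand of the gene, with motif matches in capitals, on either strand: an ETS and an NRF1-type match for Mrpl22, an ETS match next to the start for Mrps22, an NRF1-type match for Mrpl17, an NRF1-type and a CCAAT match for Mrpl33, an E-box for Mrpl20 and CCAAT matches for Mrpl41 and Mrpl37. The positions, on RefSeq GRCm38.p6, are chr11:58171544-58171663 (plus strand) for Mrpl22, chr9:98601680-98601799 (minus strand) for Mrps22, chr7:105811088-105811207 (minus strand) for Mrpl17, chr5:31613831-31613950 (plus strand) for Mrpl33, chr4:155802758-155802877 (plus strand) for Mrpl20, chr2:24975099-24975218 (minus strand) for Mrpl41 and chr4:107066867-107066986 (minus strand) for Mrpl37.
Mrpl22: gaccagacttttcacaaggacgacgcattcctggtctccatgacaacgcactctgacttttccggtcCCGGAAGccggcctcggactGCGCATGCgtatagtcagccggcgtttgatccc
Mrps22: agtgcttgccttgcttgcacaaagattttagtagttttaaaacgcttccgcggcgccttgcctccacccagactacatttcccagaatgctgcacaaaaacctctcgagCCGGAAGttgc
Mrpl17: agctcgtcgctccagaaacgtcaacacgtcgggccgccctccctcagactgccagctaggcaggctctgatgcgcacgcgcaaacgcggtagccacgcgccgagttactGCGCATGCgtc
Mrpl33: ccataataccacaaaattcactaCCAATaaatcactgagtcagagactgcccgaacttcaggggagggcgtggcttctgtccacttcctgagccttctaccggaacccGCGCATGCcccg
Mrpl20: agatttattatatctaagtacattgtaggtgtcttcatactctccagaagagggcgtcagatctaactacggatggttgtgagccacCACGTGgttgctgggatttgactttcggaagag
Mrpl41: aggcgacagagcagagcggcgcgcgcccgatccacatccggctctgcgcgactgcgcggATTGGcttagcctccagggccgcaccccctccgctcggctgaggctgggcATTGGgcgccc
Mrpl37: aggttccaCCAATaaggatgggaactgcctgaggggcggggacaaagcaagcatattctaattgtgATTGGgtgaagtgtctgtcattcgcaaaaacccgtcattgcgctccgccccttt

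Transcripts of the factors known to bind such motifs mostly fell or did not pass the test. Of 10 transcription factors and coactivators of mitochondrial genes, 1 rose and 5 fell. Of all 13066 protein-coding genes tested, 3546 rose and 5029 fell, which is the background for this list and those that follow. The GABP subunits fell, Gabpb2 by 0.57 ± 0.05 on the log2 scale (SE; adjusted p = 4.75e-07), from 237 to 266 CPM in CTRL to 161 to 178 in CML. Gabpa and Gabpb1 fell by 0.27 and 0.22, the latter not past the threshold with upper-quartile scaling (adjusted p = 0.115). Pprc1, a coactivator of NRF1, fell by 0.65 and Yy1 by 0.38, neither with overlapping groups. Esrra, a nuclear receptor that drives genes of oxidative metabolism, rose by 0.34 ± 0.06 (SE; adjusted p = 0.000335). Nrf1 (0.09, adjusted p = 0.180) and Myc (-0.09, adjusted p = 0.360) did not pass the test, and protein levels were not measured.

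The 5 subunits of the mitochondrial ribosome that have other names also rose, all 5 of 5. Chchd1 had the highest fold change, from 24.3, 28.9 and 34.1 CPM in the lowest, median and highest CTRL library to 42.1, 58.3 and 103 CPM in CML (log2 fold change 1.21 ± 0.19, SE; adjusted p = 5.86e-05). Ptcd3, which sits at the mRNA entry, changed by 0.88 ± 0.11, Gadd45gip1, near the exit of the nascent chain, by 0.71 ± 0.14, and Aurkaip1 by 0.58 ± 0.12 (SE). Dap3, a GTP-binding protein of the small subunit, was at 61.2 to 67.3 CPM in CTRL and 67.0 to 82.7 in CML. Its log2 fold change of 0.15 ± 0.06 (SE; adjusted p = 0.0424) was close to the threshold, and the groups overlapped. The call of Dap3 was lost in 14 of 21 alternative fits, 9 of them with 1 library left out (adjusted p = 0.0548 to 0.367 in these 14).

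Genes for assembly of the mitochondrial ribosome were mixed: of 30, 17 rose and 4 fell, with a median log2 fold change of 0.29. Fastkd2, which binds the large subunit rRNA, rose by 1.31 ± 0.09 on the log2 scale (SE; adjusted p = 6.63e-08), from 30.4 to 34.8 CPM in CTRL to 69.2 to 103 in CML. The GTPase Gtpbp10, which acts on the maturing large subunit, rose by 0.94, and the pseudouridine synthase Trub2 by 0.69. The 4 that fell were the rRNA methyltransferase Mrm1 (by 0.53), the subunit Spg7 of the protease that matures Mrpl32 (by 0.45), Mettl17 (by 0.42) and the RNA helicase Dhx30 (by 0.40).

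Among 17 tested translation factors and partners, 9 rose and 1 fell (median 0.45). Slirp, which with Lrpprc stabilises mitochondrial mRNAs, rose 2.57-fold (adjusted p = 6.70e-07), from 5.76 to 7.11 CPM in CTRL to 13.1 to 20.5 in CML. The release factor Mtrf1 rose by 1.09 and the elongation factor Guf1 by 0.51, whereas Oxa1l, the insertase that receives new chains in the inner membrane, fell by 0.43 ± 0.07 (SE; adjusted p = 7.67e-05). Lrpprc itself had a log2 fold change of 0.15 (adjusted p = 0.0644).

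Charging of mitochondrial tRNAs had no common direction, with 10 of 20 genes higher, 6 lower and a median of 0.15. The tyrosine and asparagine enzymes Yars2 and Nars2 rose by 0.89 and 0.76. The valine enzyme Vars2 fell by 0.69 ± 0.07 (SE; adjusted p = 7.72e-07), from 44.2 to 49.4 CPM in CTRL to 26.0 to 32.8 in CML. Ears2, Aars2, Sars2, Gatc and Tars2 fell by 0.16 to 0.44. With upper-quartile scaling Tars2 (adjusted p = 0.208) and Gatc (adjusted p = 0.147) no longer passed the test.

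Of 19 genes for copying, transcribing and processing mitochondrial DNA and RNA, 11 rose and 3 fell (median 0.47). Tefm, the elongation factor of mitochondrial transcription, rose by 1.41 ± 0.11 on the log2 scale (SE; adjusted p = 1.13e-07), and the RNA-degrading enzyme Pnpt1 by 0.78. The 3 that fell were the enzymes that move along the DNA: the polymerase Polg (by 0.71), the RNA polymerase Polrmt (by 0.59) and the helicase Twnk (by 0.32). None of the 3 had overlapping groups.

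**Figure D5:**
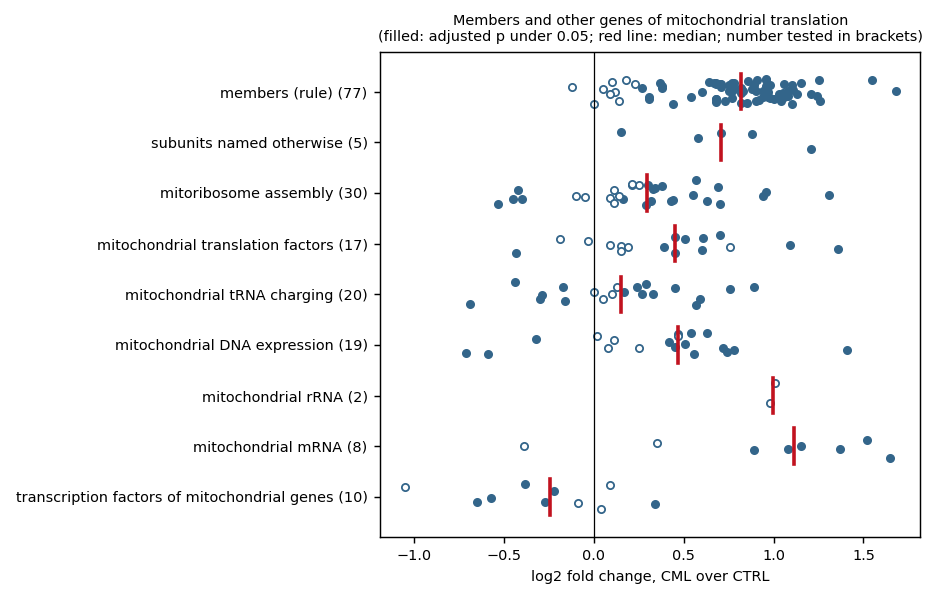
Log2 fold change of CML over CTRL for the members and for 8 lists of related genes, with 1 point per tested gene, filled where the adjusted p was under 0.05, and the median as a red line. The members lie between -0.12 and 1.68 with a median of 0.82, the assembly, tRNA charging and DNA expression lists have points on both sides of 0, and the transcription factor list has a median of -0.24.

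The RNAs that this ribosome reads were also higher. Of 8 tested mitochondrial mRNAs 6 rose and 0 fell. mt-Co1, the catalytic subunit of cytochrome c oxidase, was at 3509, 3746 and 5236 CPM in the lowest, median and highest CTRL library and 11510, 13180 and 14720 CPM in CML (log2 fold change 1.65 ± 0.12, SE; adjusted p = 1.01e-07). The complex I subunits mt-Nd1 and mt-Nd4 rose by 1.52 and 1.37. mt-Nd6, the mRNA encoded on the other strand of the mitochondrial genome from the rest, was at 111 to 233 CPM in CTRL and 106 to 136 CPM in CML (log2 fold change -0.39, adjusted p = 0.0740), and mt-Nd3 had 0.35 (adjusted p = 0.216). Mitochondrially encoded genes in all took 0.816 to 1.288% of counts in CTRL and 2.258 to 2.973% in CML. mt-Co2, mt-Co3, mt-Atp6, mt-Atp8 and mt-Nd4l had at most 12 counts in any library, so the files do not inform on them.

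The rRNAs of the mitochondrial ribosome could not be placed. mt-Rnr1, of the small subunit, ranged from 15.2 to 281 CPM in CTRL and 44.6 to 456 CPM in CML (log2 fold change 0.98 ± 0.64, SE; adjusted p = 0.202), and mt-Rnr2, of the large subunit, from 61.2 to 486 and 92.6 to 794 CPM (1.01 ± 0.55, SE; adjusted p = 0.128). The spread within each group exceeded the difference between them.

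Cytosolic ribosomal protein genes were taken by symbol only, as protein-coding genes beginning with Rpl or Rps and a digit. This form also fits the Rps6k kinases, which are not ribosomal proteins, and it leaves out the Rplp genes and Rpsa. Of 90 such genes tested, 75 rose and 4 fell, with a median log2 fold change of 0.79. Whether those that fell encode ribosomal proteins was not examined, and the difference from the members was not tested. The 10 S phase genes (4 higher, 5 lower) summed to 2448 to 2977 CPM in CTRL and 2381 to 2975 in CML, and the 10 G2 and M phase genes (3 higher, 4 lower) to 3187 to 3871 and 1919 to 2427 CPM.

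Outside the rule, the 3 genes whose log2 CPM over the 12 libraries was most like the mean of the tested members were Cox4i1 (PCC 0.998), Rnf7 (0.998) and Vps35 (0.997). Cox4i1, a nuclear-encoded subunit of cytochrome c oxidase, was at 148, 172 and 188 CPM in the lowest, median and highest CTRL library and 326, 395 and 578 CPM in CML. Rnf7, a ring protein of ubiquitin ligases, was at 40.0 to 49.5 and 71.7 to 103 CPM, and Vps35, of the retromer that sorts endosomal proteins, at 169 to 200 and 307 to 439 CPM. The libraries fall into the 2 groups, and the PCCs mostly follow that step.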

How the data were processed

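RNA-seq counts of 12 libraries (6 CTRL, 6 CML) were used as the authors deposited them: raw counts per Ensembl gene with no normalization, 1 file a library. The submitters' processing notes list FastQC 0.11.9, fastp 0.23.2, STAR 2.7.10a, featureCounts 2.0.1 and DESeq2 1.36.0 with GRCm39, whereas the methods name Trim Galore!, HISAT2 and hg38. The annotation release, strand setting and handling of multi-mapping reads are not given in the sources used here. Reads that fit overlapping genes or close copies may therefore be lost or shared.

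Symbols and transcript lengths came from GENCODE M21 by identifier (52073 of 56748 matched, and the other 4675 were kept in library sizes). Lengths are those of the principal transcript. A symbol absent there was looked up through RefSeq synonyms. The 12 libraries were compared with edgeR 4.0.16 in R 4.3.3 (TMM scaling, filterByExpr, 18438 genes, quasi-likelihood test, Benjamini-Hochberg adjustment over all genes, threshold 0.05), and SEs are the log2 fold change over the root of F. CPM uses TMM-scaled library sizes, and log2 CPM a prior count of 2. The test was tried on simulated counts. limma 3.58.1 and DESeq2 1.42.0 were alternatives, with other scalings, filters, samples and the replicate number as a block. Summaries and plots used Python 3.11.15, pandas 2.3.3, numpy 2.4.6 and matplotlib 3.10.9. The total count of a library limits low genes only, and 3 counts was taken as the floor. No libraries were duplicates (lowest chi-square per degree of freedom 4.07).

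Members and lists were chosen with earlier results of these data known. Genes are named by rule: the subunits with other names and the mitochondrial rRNAs, the 12 members called higher with the highest fold change and up to 8 called lower (0 were), the 3 nearest to 0, the 3 highest and 3 lowest per length, the 3 with the largest SD in each group, those below the filter or losing the call under an alternative, of each list the 3 with the smallest adjusted p and any called against most of the list, and the 3 genes most like the members. Mrps5, Mrps2, Mrpl10, Mrps15, Mrpl38, Mrpl24, Mrps17, Mrps26, Gabpa, Gabpb1, Nrf1, Myc, Lrpprc and Lars2 were named after their values were seen.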

Additional observations from a re-analysis of the deposited data

Results flagged for a closer look

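In 126 groups of 6 libraries examined, for named genes and summed levels, 8 had a library far from the other 5, where about 6.3 would arise by chance. CTRL 3 was the highest CTRL library for Mrpl22 (16.0 CPM, next 13.3), Yars2 (32.2 CPM, next 29.6) and Yy1 (269 CPM, next 244), and CTRL 5 had 0 CPM of Mrpl53 (next 0.113). Among the CML libraries, CML 2 was the highest for Dap3 (82.7 CPM, next 71.5), CML 1 the highest for Mrm1 (16.0 CPM, next 12.1), CML 6 the lowest for Polrmt (22.0 CPM, next 27.6) and CML 3 the lowest for Yy1 (175 CPM, next 188). The summed MRP level and the ratio of the subunit sums had no such library.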

How the results depend on the processing

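The count of members called higher was 68 with DESeq2, 68 with limma voom and quality weights, 73 with upper-quartile scaling, 70 with library size alone, 68 on nuclear genes only and 67 without the filter. It was 67 without both libraries numbered 6, 69 without CML libraries 2 and 4, 67 at an adjusted p under 0.01, and 68 to 70 when 1 library was left out. In none of these was a member called lower. The median log2 fold change of the members ran from 0.75 to 0.90, and 67 members were called higher in every fit. Mrpl45, near the inner membrane at the exit of the nascent chain (log2 fold change 0.31 ± 0.10, SE; adjusted p = 0.0155), lost its call without the filter (adjusted p = 0.0800) and without both libraries numbered 6 (0.0582). The ratio of CML to CTRL sums was 1.75 to 1.78 with other denominators and 1.66 to 1.79 with 1 library left out. Libraries with the same number did not deviate together (correlations of -0.125 to 0.068, 1 of 12 libraries closest to its own number), and a fit with the replicate block called 68 members higher and 0 lower, with a median of 0.81. Apart from the call of Dap3, the replicate block ended that of Gatc (adjusted p = 0.0868, Dap3 0.0969). Calls of Tars2 were lost in 4 fits, of Gatc in 4 and of Sars2 in 1. Related genes called higher numbered 59, and 49 to 71 under the alternatives, with 19 and 16 to 21 called lower.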

Other observations

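Lars2, the mitochondrial leucine tRNA enzyme, stood apart from the other charging enzymes by its spread. It had 64.4, 716, 564, 335, 106 and 138 CPM in CTRL 1 to 6, in that order, and 170 to 521 CPM in the CML libraries (log2 fold change 0.00 ± 0.51, SE). The large mitochondrial rRNA mt-Rnr2 had 61.2, 486, 291, 227, 62.4 and 82.0 CPM in the same CTRL libraries, so both were highest in CTRL 2 and lowest in CTRL 1. The cause was not tested.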
